A study of Mus musculus with 20 samples.

Results

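Tumors that received the p19Arf gene were compared with tumors that did not, in mice carrying implants of LLC-1, a Lewis lung carcinoma cell line, whose host strain was C57Bl/6. The tumors with p19Arf were 10 of the 20 arrays in the series, chosen by their titles: 5 given an adenovector with p19Arf alone and 5 given p19Arf together with IFNbeta. The other 10 were 5 tumors given an adenovector with eGFP, the control, and 5 given IFNbeta. All 4 groups thus carried adenovirus, and no untreated tumor was among them. Per the labels, each tumor was injected 5 times at intervals of 48 h, with 25 µl a dose and 8 as the log10 of its infectious units. The presence of IFNbeta was a term of the model, so that each p19Arf group was set against the group with the same IFNbeta status. The volume and load given are the same for the combination as for a single vector. If the combination shared that load between its vectors, its dose of the IFNbeta vector was lower than in the IFNbeta group. The presence of p19Arf and such a lower dose cannot be told apart. The labels give no age of the mice and do not say whether each array held 1 animal, so the p-values measure the spread between these samples, which may in part be technical.

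p19Arf is the product of an alternative reading frame of Cdkn2a. It holds the ubiquitin ligase Mdm2 in check, chiefly in the nucleolus, which lets the transcription factor p53 accumulate and switch on genes of growth arrest and cell death. Cells in which p53 signalling is intact are the ones in which restored Arf is known to act through this route.

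The clearest differences were modest in size and ran through several kinds of gene. Fibrillar collagens and microfibril genes were higher with p19Arf, with Col1a1 higher by 0.93, Col1a2 by 0.90 and Mfap4 by 0.50 on the log2 scale. Most genes of the type I interferon response and most factors that act on blood vessels were lower by estimate, among them Ifit1 with a difference of -0.45 and Angpt2 with -0.50, and so was the mast cell gene Cpa3, with -0.87. The median of the interferon genes was -0.03 without IFNbeta and -0.35 with it, where the dose may also differ. That of the vessel factors was -0.17, and -0.08 once the array spread, described below, entered the model. The microRNA genes of an imprinted cluster between Dlk1 and Dio3, grouped after the values were seen, were all higher by estimate. So were 211 of the 261 other microRNA genes. No gene passed an adjusted p under 0.05 in limma over 19938 genes, so each of these is a difference in mean with its error, not a call.

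Expression was read as log2 values on 1-colour arrays, whose number limits the precision. Array medians ran from 7.49 to 7.61, and correlations between arrays ran from 0.967 to 0.996 within a group and from 0.961 to 0.997 between groups, so the groups did not separate by overall similarity. The files carry no detection call, so a low value cannot be told from an absent transcript. Of genes that mark the labelled tissue, the mean log2 level over all 20 arrays was 13.61 for Vim, the intermediate filament of mesenchymal cells. The keratins Krt8 and Krt18, of simple epithelia, had mean log2 levels of 7.75 and 7.17, the surface protein Epcam 6.41 and the lung factor Nkx2-1 6.98. The array values are from whole tumors, in which fewer cells of a type and less RNA per cell cannot be told apart.

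The transcript of the vector gene itself was examined first. Cdkn2a had a log2 level of 7.29 to 7.54 without p19Arf (median 7.40) and of 7.25 to 7.82 with it (median 7.59). The groups overlapped: 6 of the 10 tumors with p19Arf lay above all 10 without, and the other 4, p19Arf replicates 1 and 2 and combination replicates 1 and 2, did not. The group means were 7.58 ± 0.19 for p19Arf and 7.43 ± 0.07 for eGFP, and 7.55 ± 0.21 for the combination and 7.38 ± 0.09 for IFNbeta (SD, n = 5 each). The difference was 0.16 (SE 0.07, limma adjusted p = 0.125), with a 2-sided exact permutation p of 0.0295 over 63504 relabellings within IFNbeta status. It was 0.04 once the array spread, described below, entered the model. The place of this probe set relative to the vector insert is not given in these sources, so it neither checks nor questions the labels. Ifnb1, the gene of the other vector, differed by -0.15 (SE 0.09, limma adjusted p = 0.246).

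Of the genes with the smallest p among those higher with p19Arf, Capn6, a calpain family member that lacks protease activity and binds microtubules, came first. Capn6 had a log2 level of 5.83 to 6.26 without p19Arf (median 6.03) and of 6.11 to 6.70 with it (median 6.43). All tumors with p19Arf except p19Arf replicate 2 lay above every tumor without it. Capn6 differed by 0.42 (SE 0.07, limma unadjusted p = 6.15e-06, adjusted p = 0.0539), by 0.38 without IFNbeta and by 0.45 with it.

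Acpp, which encodes the prostatic type acid phosphatase, had the smallest p of all genes. Acpp had a log2 level of 7.75 to 8.64 without p19Arf (median 8.39) and of 7.34 to 7.99 with it (median 7.71). The tumor without p19Arf that overlapped the others was eGFP replicate 1, at 7.75. Acpp differed by -0.59 (SE 0.10, limma unadjusted p = 3.58e-06, adjusted p = 0.0539), by -0.50 without IFNbeta and by -0.69 with it.

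A further 11 named genes were higher, all at the same adjusted p of 0.0539. Mfap4, which binds elastin microfibrils, had a log2 level of 7.25 to 7.89 without p19Arf (median 7.54) and 7.66 to 8.77 with it (median 7.95). Ngp, a granule protein of developing neutrophils, lay at 5.61 to 5.89 without and 5.89 to 6.36 with p19Arf. Sirt3, a mitochondrial protein deacetylase, lay at 7.92 to 8.18 without and 8.12 to 8.51 with p19Arf. In Ngp and Sirt3, 9 of the 10 tumors with p19Arf were above every tumor without it. Secreted or surface proteins among the rest were the integrin-like protein Itgbl1 (0.38), Dkk3 of the Dickkopf family (0.34), the kallikrein Klk1b9 (0.37), the protocadherin Pcdhb3 (0.30) and the nonclassical MHC class I gene H2-M10.2 (0.29), the values being log2 differences. The others were the kinase Stk32b (0.33), the nucleotide hydrolase Nudt18 (0.30) and Dio3 (0.28), the deiodinase that inactivates thyroid hormone. Klk1b9, H2-M10.2 and Pcdhb3 belong to families of near-identical genes, and their probe sets may read relatives.

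The 11 named genes lower with p19Arf beside Acpp also shared the adjusted p of 0.0539. Spry4, an inhibitor of receptor tyrosine kinase signalling, had a log2 level of 9.40 to 10.10 without p19Arf (median 9.87) and 9.14 to 9.58 with it (median 9.37). Lgals9, which encodes the glycan-binding protein galectin 9, lay at 10.20 to 11.11 without and 9.82 to 10.44 with p19Arf. Rel, the c-Rel subunit of NF-kB, lay at 9.05 to 9.50 without and 8.40 to 9.16 with p19Arf. In each of the 3, every tumor with p19Arf was below the median of those without, and the ranges overlapped. The log2 difference was -0.81 (SE 0.16) for Cbr2, a carbonyl reductase, the largest of these genes, and -0.54 for the zinc finger gene Zfp930. It was -0.52 for Alg3, a mannosyltransferase of N-glycan assembly, -0.50 for the sorting nexin Snx3, -0.44 for the Golgi protein Dym, -0.41 for the chromatin remodeller subunit Vps72, -0.38 for the corepressor Rcor3 and -0.35 for Tlcd3a.

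**Figure D1:**
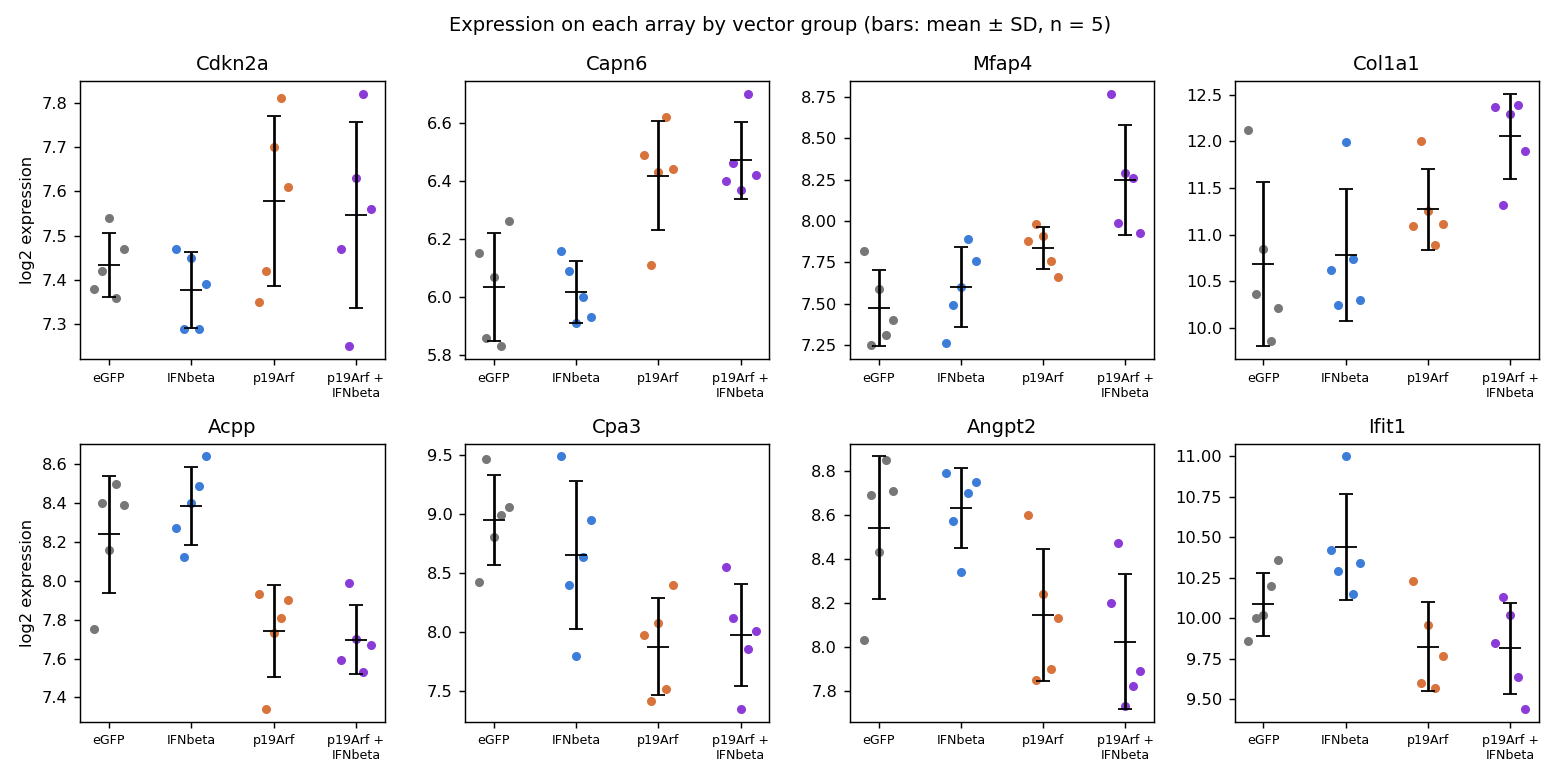
Each point is the log2 expression of 1 array, by vector group, with bars at the group mean ± SD (n = 5 each), for 8 genes described in the text; each panel has its own axis, which does not start at 0. Capn6 and Acpp had p19Arf and combination means on the same side of eGFP and IFNbeta, and in Col1a1 eGFP replicate 1 (12.12) and IFNbeta replicate 3 (11.99) lay among the combination tumors.

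Over all genes, 0 of 19938 (0%) passed an adjusted p under 0.05 in limma, and the smallest adjusted p, 0.0539, was shared by 633 genes. At an adjusted p under 0.10 4009 genes (20.1%) passed, 1497 higher and 2512 lower. At an unadjusted p under 0.05 there were 3040 genes higher (15.2%) and 3664 lower (18.4%). By estimate alone, 11532 genes were higher and 8406 lower. The count at 0.05 turned on single arrays: it was 3595 without eGFP replicate 1, 3582 without p19Arf replicate 1, 3486 without IFNbeta replicate 3, 2657 without combination replicate 2 and 1 without p19Arf replicate 2. With array weights, which give less weight to arrays that depart from their group, 2530 genes passed, 858 higher (4.3%) and 1672 lower (8.39%).

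The p19Arf difference was also taken without IFNbeta (p19Arf minus eGFP) and with it (combination minus IFNbeta), which share no array. Neither gave a gene at an adjusted p under 0.05 in limma, and 1445 and 5147 genes had an unadjusted p under 0.05. Across the 19938 genes the differences correlated at r = 0.756 (Spearman 0.719), and 15958 genes (80%) had the same sign in both. Genes are not independent replicates, and this r was 0.297, with 56% of signs shared, when the array spread was a covariate. The test of whether p19Arf acted differently with IFNbeta (the interaction) gave 0 genes at an adjusted p under 0.05 in limma and 260 (1.3%) at an unadjusted p under 0.05.

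**Figure D2:**
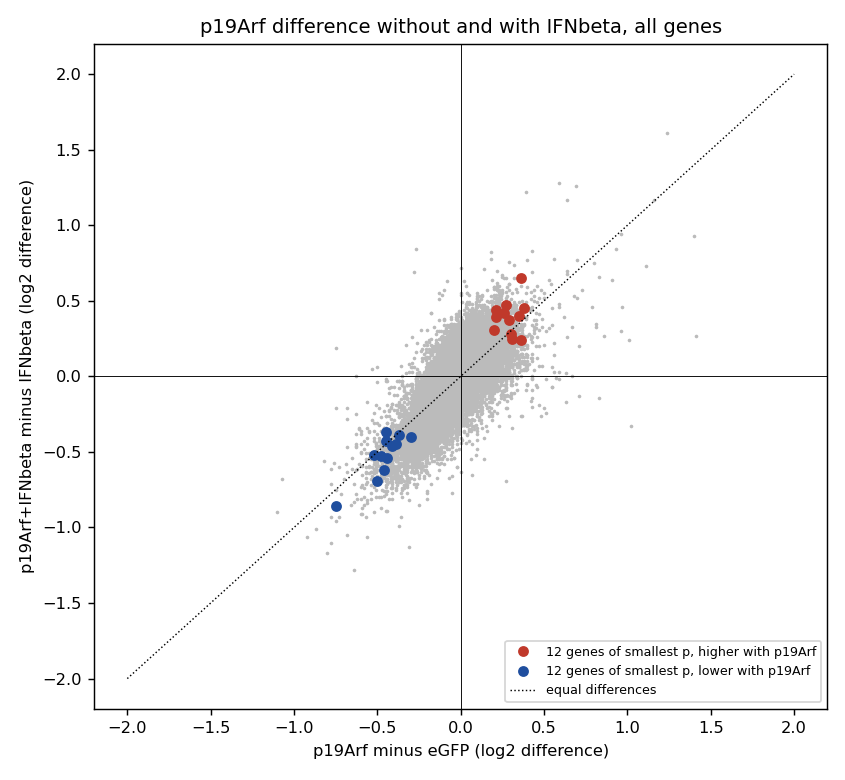
Each grey point is 1 of 19938 genes, with the log2 difference of p19Arf minus eGFP on the horizontal axis and of combination minus IFNbeta on the vertical axis; coloured points are the 12 genes of smallest p in each direction. The points stretch along the dotted line of equal differences (r = 0.756, which is 0.297 with array spread as a covariate).

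The arrays with and without p19Arf differed in properties of the whole array. Array medians averaged 7.53 without p19Arf and 7.57 with it, a difference of 0.0367 with a 2-sided exact permutation p of 0.039. With median centring 0 genes passed in limma (smallest adjusted p 0.0558). The spread, the standard deviation of an array's log2 values, ran from 2.04 to 2.15 without p19Arf and from 1.99 to 2.13 with it. Its means were 2.11 ± 0.034 and 2.06 ± 0.048 (SD, n = 10 each), a difference of -0.0499 with a 2-sided exact permutation p of 0.0199. Of the 5 arrays of lowest spread, 4 had p19Arf (combination replicates 4 and 5, p19Arf replicates 2 and 4) and 1 was IFNbeta replicate 3. Genes of low and high level differed in opposite directions: the median log2 difference was 0.11 in the lowest of 10 equal groups of genes by mean level and -0.16 in the highest. With the spread as a covariate these medians were 0.02 and -0.01, 0 genes passed in limma (smallest adjusted p 0.78), and 566 genes higher (2.84%) and 539 lower (2.7%) had an unadjusted p under 0.05. The spread moved with p19Arf, so this fit also takes away any p19Arf difference that follows it, and its part in each result was not tested. The value with it as a covariate is given beside each gene list. Counts of list members from that fit stand against its shares of all genes, 2.84% higher and 2.7% lower.

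**Figure D3:**
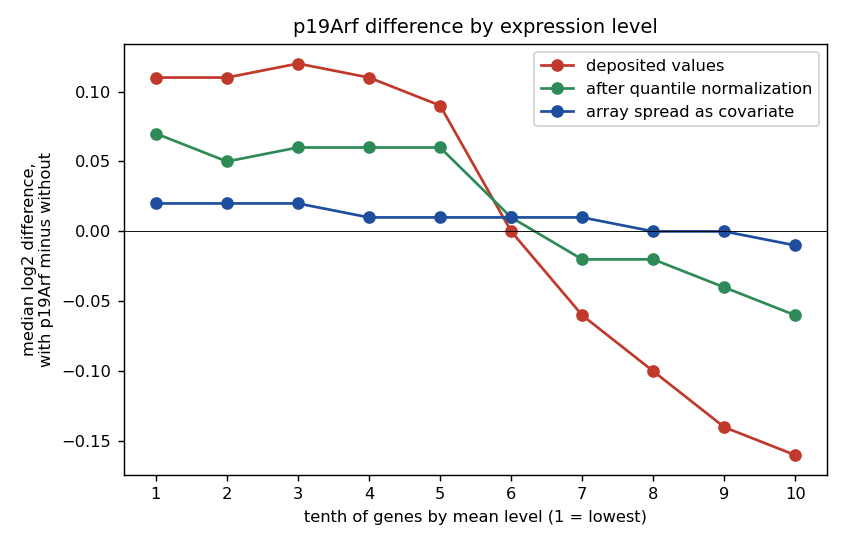
The median log2 difference, with minus without p19Arf, is plotted for 10 equal groups of genes ordered by mean level, for the deposited values, after quantile normalization and with array spread as a covariate. The deposited values run from 0.11 in the lowest group to -0.16 in the highest, quantile normalization from 0.07 to -0.06 and the covariate fit from 0.02 to -0.01.

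Collagens and other matrix genes made up the list with the largest share of members higher at an unadjusted p under 0.05 among the lists of protein-coding genes. Of 26 measured members 21 were higher, 16 of them and 3 lower members at an unadjusted p under 0.05, against 15.2% and 18.4% of all genes. The median difference was 0.25 (0.15 without and 0.38 with IFNbeta), against 0.04 over all genes. Once the spread was a covariate, 23 of 26 were higher, 10 of them at an unadjusted p under 0.05, with a median of 0.23.

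Type I collagen, the main fibre of scar and tumor stroma, is built from the products of Col1a1 and Col1a2. Col1a1 had a log2 level of 9.86 to 12.12 without p19Arf (median 10.49) and 10.89 to 12.39 with it (median 11.61). All 10 tumors with p19Arf lay above the median of those without, and only eGFP replicate 1 and IFNbeta replicate 3 of the tumors without p19Arf exceeded 11. Col1a1 differed by 0.93 (SE 0.25, limma adjusted p = 0.0539), by 0.59 without IFNbeta and 1.28 with it, and by 0.53 with the spread as a covariate. Col1a2 ran from 9.29 to 11.27 without and 10.24 to 11.92 with p19Arf, a difference of 0.90 (SE 0.23, limma adjusted p = 0.0539). The group means of Col1a1 were 11.27 ± 0.43 for p19Arf against 10.68 ± 0.88 for eGFP, and 12.06 ± 0.46 for the combination against 10.78 ± 0.71 for IFNbeta (SD, n = 5 each), and the interaction did not pass (log2 difference 0.69, limma adjusted p = 1).

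Collagens that join or cover those fibres had smaller differences in the same direction. Col3a1 differed by 0.39, Col5a2 by 0.43, Col5a1 by 0.22 and Col6a1 by 0.21. Of proteins of elastic fibres and microfibrils, Eln, which encodes elastin, differed by 0.25 and Mfap5 by 0.46. Postn, encoding periostin, a matrix protein of activated fibroblasts, differed by 0.52, and by 0.72 with the spread as a covariate. The members chosen here beyond Mfap4 and Col1a2 were named after their values were seen.

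The 3 matrix genes lower at an unadjusted p under 0.05 were Lum and Dcn, small leucine-rich proteoglycans that bind collagen fibrils, and Fn1, fibronectin. Lum had a log2 level of 7.95 to 10.32 without p19Arf (median 9.92) and 6.88 to 9.67 with it (median 8.90). Dcn ran from 11.22 to 12.38 without p19Arf and from 10.04 to 12.12 with it. The lowest values without p19Arf were those of eGFP replicate 1 and IFNbeta replicate 3 in both genes. Lum differed by -0.99 (limma adjusted p = 0.0777), Dcn by -0.63 (0.0713) and Fn1 by -0.33 (0.0552), and by -0.18, -0.23 and -0.15 with the spread as a covariate.

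Markers of fibroblasts, which make most of this matrix, had 10 of 18 members higher, with 1 higher (5.56%) and 7 lower (38.9%) at an unadjusted p under 0.05, against 15.2% and 18.4% of all genes, and a median of 0.02. In the fit that includes the spread, 12 were higher, with 2 higher and 0 lower at that p and a median of 0.04. Their mean log2 level per array ran from 8.88 to 9.40 in p19Arf against 9.29 to 9.41 in eGFP, and from 8.99 to 9.56 in the combination against 9.14 to 9.49 in IFNbeta. Proteases that cut the matrix and their inhibitors had 18 of 23 members lower, 10 of them (43.5% of the list, 18.4% of all genes) and 0 higher members at an unadjusted p under 0.05, with a median of -0.19. With the spread in the model, 1 member was lower at that p and the median was -0.04. The stromelysin Mmp10 differed by -0.58 and the inhibitor Timp2 by -0.41, which with the spread as a covariate were -0.35 and -0.09.

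**Figure D4:**
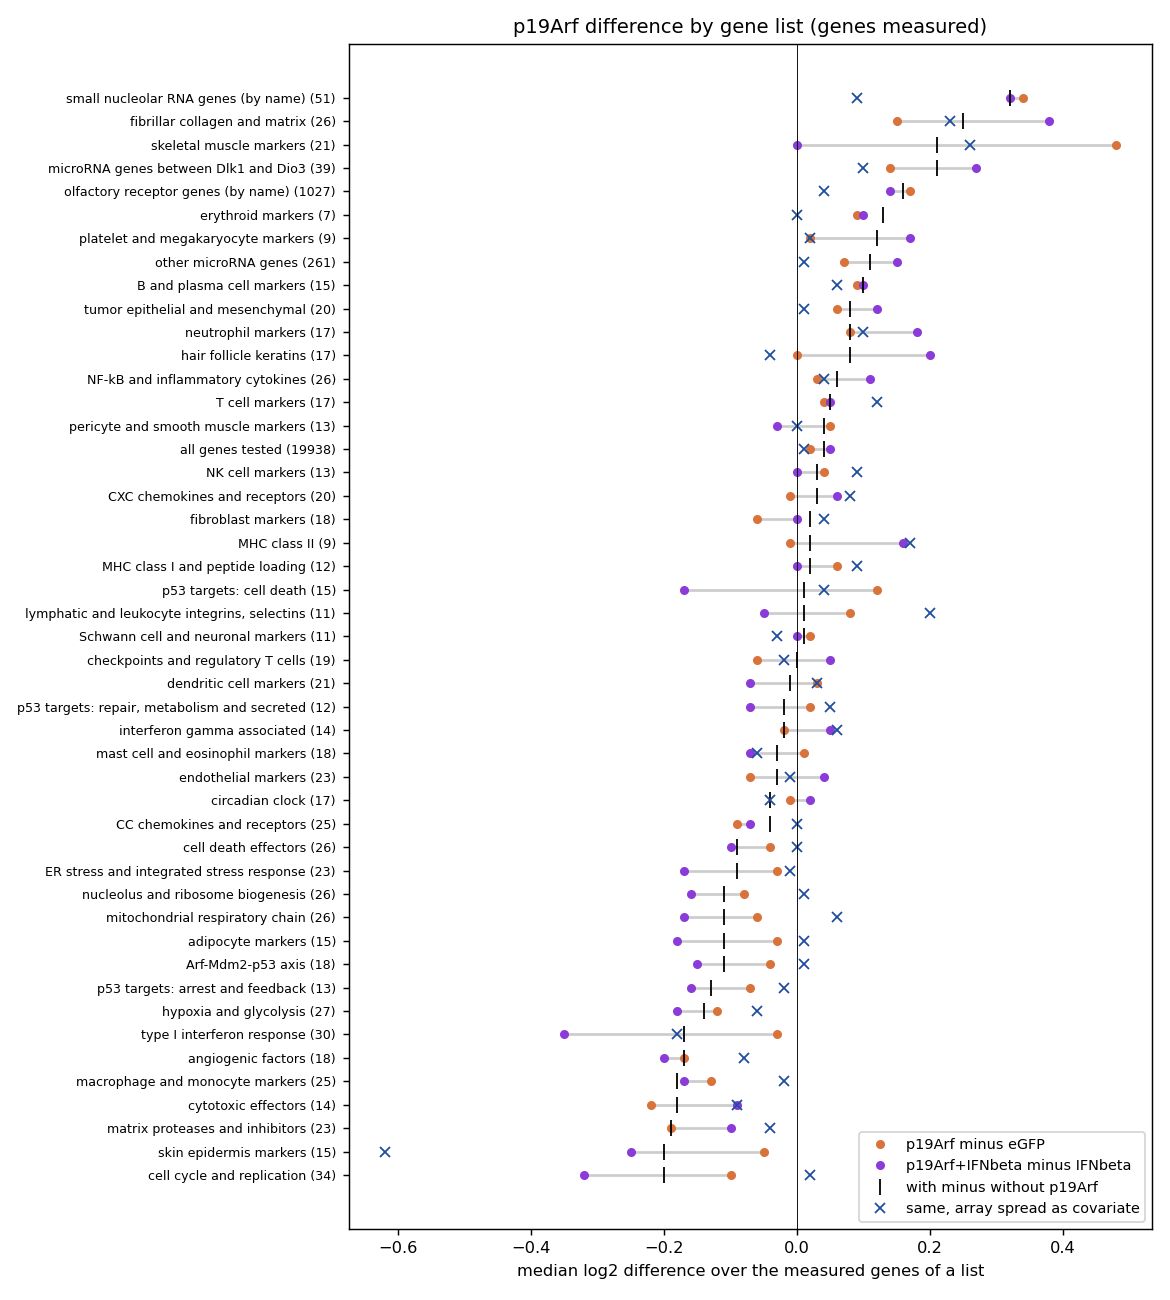
For each gene list (number measured) the points give the median log2 difference of p19Arf minus eGFP and of combination minus IFNbeta, the bar that of all tumors with minus all without p19Arf, and the cross the last once array spread is a covariate. The matrix list stands at 0.25 and 0.23 with the covariate, while cell cycle genes stand at -0.20 and 0.02.

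Type I interferon response genes, which interferon alpha and beta induce to restrain viruses, were lower by estimate in 27 of 30 measured members. An unadjusted p under 0.05 was reached by 12 members lower (18.4% of all genes) and 0 higher. The median difference was -0.17, made of -0.03 without IFNbeta and -0.35 with it. In the latter, p19Arf and a possibly lower dose of the IFNbeta vector cannot be told apart. With the spread as a covariate all 30 were lower, 10 of them (33.3%, against 2.7% of all genes) at an unadjusted p under 0.05, with a median of -0.18.

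Ifit1, Rsad2 and Bst2 are effectors of this program, and the 250 bases before their starts are shown since interferon-stimulated genes are read from elements of this kind. The capitals mark 2 copies of GAAA with 2 bases between them, or of TTTC where the motif lies on the other strand, a spelling of the interferon-stimulated response element. In Bst2 the capitals hold 2 such motifs that overlap and share a copy of GAAA. The sequences are RefSeq's on GRCm38.p6, given along each gene's own strand: Ifit1 at chr19:34640639-34640888 on the plus strand, Rsad2 at chr12:26456453-26456702 on the minus strand and Bst2 at chr8:71537473-71537722 on the minus strand.
Ifit1: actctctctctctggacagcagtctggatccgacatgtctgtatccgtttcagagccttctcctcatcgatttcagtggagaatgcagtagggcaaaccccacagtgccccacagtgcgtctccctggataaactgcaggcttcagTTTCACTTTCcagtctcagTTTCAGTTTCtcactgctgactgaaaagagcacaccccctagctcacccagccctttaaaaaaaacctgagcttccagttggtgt
Rsad2: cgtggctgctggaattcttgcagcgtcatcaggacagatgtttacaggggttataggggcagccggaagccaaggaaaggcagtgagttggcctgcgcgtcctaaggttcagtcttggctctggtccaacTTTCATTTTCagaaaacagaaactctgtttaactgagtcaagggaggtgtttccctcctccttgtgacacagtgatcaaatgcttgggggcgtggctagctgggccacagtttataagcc
Bst2: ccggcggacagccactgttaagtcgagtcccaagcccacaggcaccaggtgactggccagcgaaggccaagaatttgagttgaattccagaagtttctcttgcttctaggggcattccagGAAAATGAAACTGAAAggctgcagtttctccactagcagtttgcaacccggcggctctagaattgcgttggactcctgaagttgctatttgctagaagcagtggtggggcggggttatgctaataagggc
The motif was found on either strand, overlaps counted, in 9 of the 22 list members in the promoter table (40.9%) and in 936 of all its 27025 genes (3.46%). The genes shown are among the members that carry it. The windows of Samd9l, Cmpk2, Ddx58 and Irf9, named below, held no such motif. A match is a description of the letters and not a shown site of binding.

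Ifit1, which binds foreign RNA, had a log2 level of 9.86 to 11.00 without p19Arf (median 10.25) and 9.44 to 10.23 with it (median 9.81). All tumors with p19Arf lay below the median of those without, and IFNbeta replicate 3 was the highest of all at 11.00. The group means were 9.83 ± 0.27 for p19Arf against 10.09 ± 0.19 for eGFP, and 9.82 ± 0.28 for the combination against 10.44 ± 0.33 for IFNbeta (SD, n = 5 each). Ifit1 differed by -0.45 (limma adjusted p = 0.0539), by -0.26 without IFNbeta and by -0.63 with it. Rsad2, the antiviral enzyme viperin, ran from 9.43 to 11.00 without and 9.11 to 10.12 with p19Arf, a difference of -0.50 (limma adjusted p = 0.0539). Bst2, or tetherin, which also carries the motif, ran from 10.06 to 10.82 without and 10.07 to 10.93 with p19Arf, a difference of 0.03 (limma adjusted p = 0.814). With the spread as a covariate Bst2 was lower by estimate, as were all 30 members of the list.

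Samd9l, a restriction factor for viruses, had the smallest p of the list. Samd9l had a log2 level of 10.27 to 10.66 without p19Arf and 9.75 to 10.33 with it, and 8 of the 10 tumors with p19Arf lay below all 10 without. It differed by -0.35 (SE 0.07, limma adjusted p = 0.0539), by -0.14 without IFNbeta and -0.55 with it. Usp18, the protease that removes ISG15, differed by -0.48, the mitochondrial nucleotide kinase Cmpk2 by -0.50, the RNA sensor Ddx58 by -0.37 and the transcription factor Irf9 by -0.18. These 4, Ifit1, Rsad2 and Bst2 were named after their values were seen. The interaction was negative in 28 of the 30 genes and had an unadjusted p under 0.05 in 5, against 1.3% of all genes, but none had an adjusted p below 1 in limma. Without IFNbeta replicate 3, 25 of 30 were lower, with a median of -0.11. Of these, 11 (36.7% of the list, against 21.2% of all genes in that setting) had an unadjusted p under 0.05. The fit with the spread as a covariate was not run without that array.

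Factors that act on blood vessels were lower in 13 of 18 members, 11 lower and 0 higher at an unadjusted p under 0.05 (18.4% and 15.2% of all genes), with a median of -0.17. Angpt2, which loosens vessel walls for sprouting, had a log2 level of 8.03 to 8.85 without p19Arf (median 8.70) and 7.73 to 8.60 with it (median 8.01). Every tumor with p19Arf lay below the median of those without, and 5 lay below all of them. Angpt2 differed by -0.50 (SE 0.12), Apln, the peptide ligand apelin, by -0.52 (SE 0.13), and Pgf, placental growth factor, by -0.45, each with a limma adjusted p of 0.0539. Once the spread was a covariate, they differed by -0.24, -0.26 and -0.36, and the list had 4 members lower at an unadjusted p under 0.05 and a median of -0.08. Vegfa, the main growth factor of vessels, differed by 0.09 (limma adjusted p = 0.566), and by -0.08 with the spread as a covariate.

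Markers of the endothelial cells that line vessels were lower in 14 of 23 members, with a median of -0.03. At an unadjusted p under 0.05 there were 5 lower (21.7%) and 2 higher (8.7%), near the 18.4% and 15.2% of all genes, and with the spread as a covariate 3 lower and 0 higher, with a median of -0.01. Cdh5, the cadherin of endothelial junctions, had a log2 level of 9.46 to 10.14 without p19Arf and 8.92 to 9.74 with it. It differed by -0.51 and Emcn, endomucin, by -0.53, each with a limma adjusted p of 0.0539, and by -0.26 and -0.29 with the spread as a covariate. Pecam1, another junction protein, differed by -0.10. Genes of hypoxia and glycolysis were lower in 18 of 27 members, 12 (44.4%, against 18.4% of all genes) at an unadjusted p under 0.05 and 0 higher, with a median of -0.14. In the fit that includes the spread, 4 were lower at that p, with a median of -0.06. Ndrg1 differed by -0.42 and the glucose transporter Slc2a1 by -0.32, and by -0.30 and -0.20 with the covariate.

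The targets of p53, which the vector gene is known to activate, were not higher as lists. Targets for arrest and feedback had 5 of 13 members higher and a median of -0.13, with 1 higher and 3 lower at an unadjusted p under 0.05. Targets for cell death had 8 of 15 higher and a median of 0.01, with 4 higher and 4 lower at that p, and those for repair, metabolism and secretion 5 of 12 and -0.02, with 1 and 1. Over all genes the shares at that p were 15.2% higher and 18.4% lower. With the spread in the model, the 3 medians were -0.02, 0.04 and 0.05. Cdkn1a and Bax, and Trp53 itself, are not used here. Mdm2, the ligase that p19Arf binds and p53 induces, had a log2 level of 10.00 to 10.53 without p19Arf and 9.94 to 10.50 with it. Its ranges almost coincided, and it differed by 0.04 (limma adjusted p = 0.698), by 0.17 without IFNbeta and -0.08 with it.

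Single members of the target lists differed in opposite directions. Siva1, a mediator of cell death, had a log2 level of 8.23 to 8.83 without p19Arf and 8.60 to 9.03 with it, a difference of 0.31 (limma adjusted p = 0.0539), and of 0.23 with the spread as a covariate. Bbc3, which encodes the cell death protein PUMA, differed by 0.21 (limma adjusted p = 0.111) and the death receptor Fas by 0.20 (limma adjusted p = 0.183), and by 0.03 and 0.09 with the spread as a covariate. Trp53i11 ran from 9.21 to 10.68 without and 8.96 to 9.56 with p19Arf, a difference of -0.67 (limma adjusted p = 0.0539), and by -0.47 with the spread as a covariate. Ppm1d, the phosphatase that turns p53 off, differed by -0.41 and by -0.11 with the spread as a covariate. The list of the Arf, Mdm2 and p53 axis itself had 6 of 18 members higher and a median of -0.11, which was 0.01 with the covariate. Npm1, the nucleolar protein that holds p19Arf in place, differed by -0.32, and 19 of 26 genes of nucleolus and ribosome biogenesis were lower (median -0.11, and 0.01 with the covariate).

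Genes of the cell cycle and DNA replication were lower in 30 of 34 members, with 17 lower (50% of the list, against 18.4% of all genes) and 3 higher (8.82%, against 15.2%) at an unadjusted p under 0.05. Their median was -0.20, with -0.10 without IFNbeta and -0.32 with it, but 0.02 with the spread as a covariate, where 22 of 34 were higher, and 1 higher and 0 lower at that p. The mean log2 level of the list was 9.73 on IFNbeta replicate 3, against 10.10 to 10.21 on the other arrays of that group. Rrm2, the small subunit of ribonucleotide reductase, differed by -0.44 and the cyclin Ccnb2 by -0.52, and Mki67, the gene of the proliferation marker Ki-67, by -0.19. With the spread as a covariate these were -0.14, -0.01 and 0.02. Cdc6, which loads the replication helicase, differed the other way, by 0.30 (limma adjusted p = 0.0539), and by 0.26 with the covariate. Without the 5 arrays of lowest spread the list had a median of -0.12. In that setting 9 members (26.5%, against 11.1% of all genes) were lower at an unadjusted p under 0.05.

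Markers of immune cells had list medians from -0.18, in macrophages and cytotoxic effectors, to 0.10, in B and plasma cells, where it was 0.06 with the spread as a covariate. Of the 15 B and plasma cell markers 12 were higher, but 0 higher and 2 lower (13.3%, against 18.4% of all genes) at an unadjusted p under 0.05. Among mast cell genes, Cpa3, the carboxypeptidase of mast cell granules, had a log2 level of 7.80 to 9.49 without p19Arf (median 8.88) and 7.35 to 8.55 with it (median 8.00). All tumors with p19Arf lay below the median of those without, and 3 lay below all of them. Cpa3 differed by -0.87 and Mcpt4, a chymase of connective tissue mast cells, by -0.43, each with a limma adjusted p of 0.0539, and by -0.58 and -0.44 with the spread as a covariate. The list of mast cells and eosinophils as a whole had 10 of 18 members lower and a median of -0.03, with 6 lower (33.3%) and 2 higher (11.1%) at an unadjusted p under 0.05, against 18.4% and 15.2% of all genes. Once the spread was a covariate, 13 were lower, 2 of them and 0 higher at that p, with a median of -0.06.

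Genes of dendritic cells were split, 9 of 21 higher and 12 lower, with 3 higher (14.3%) and 7 lower (33.3%) at an unadjusted p under 0.05 and a median of -0.01. In the fit that includes the spread, there were 1 and 2 at that p, and the median was 0.03. Over all genes in the deposited values, 15.2% were higher and 18.4% lower at that p, against which each list of this paragraph stands. The lectin gene Cd209a ran from 7.65 to 8.38 without and 7.03 to 7.89 with p19Arf, and differed by -0.56 (limma adjusted p = 0.0539). Ccr7, the receptor that guides dendritic cells to lymph nodes, differed by -0.25 and by -0.33 with the spread as a covariate. CC chemokines and their receptors were also split, 11 of 25 higher and 14 lower, with 3 higher (12%) and 7 lower (28%) at an unadjusted p under 0.05, and had a median of -0.04, which was 0.00 with the spread as a covariate. Of these Ccl17 and Ccl22, which draw regulatory and type 2 helper T cells, differed by -0.45 and -0.25. Macrophage and monocyte markers were lower in 21 of 25 members, 7 of them (28%) and 2 higher (8%) at an unadjusted p under 0.05, with a median of -0.18. With the spread in the model, 1 was lower and 2 higher at that p, with a median of -0.02. Folr2, of tissue-resident macrophages, differed by -0.52, and by -0.31 with the covariate.

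Of the T cell markers 11 of 17 were higher, 5 of them (29.4%, against 15.2% of all genes) and 1 lower (5.88%, against 18.4%) at an unadjusted p under 0.05, with a median of 0.05. With the spread as a covariate 14 were higher, 4 of them at that p, with a median of 0.12. Cd3d, a chain of the T cell receptor complex, had a log2 level of 6.53 to 6.97 without p19Arf and 6.76 to 7.55 with it, and 7 of 10 tumors with p19Arf lay above all without. Cd3d differed by 0.36 (limma adjusted p = 0.0539). The chains of the CD8 coreceptor, Cd8a and Cd8b1, differed by 0.28 and 0.31, and the helper coreceptor Cd4 by -0.19. Cytotoxic effectors had 10 of 14 members lower, 3 of them (21.4%, near the 18.4% of all genes) and 0 higher at an unadjusted p under 0.05. Their median was -0.18, which was -0.09 with the spread as a covariate.

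Genes of MHC class I and peptide loading were 6 higher and 6 lower (median 0.02, and 0.09 with the spread as a covariate), 3 of them higher and 0 lower at an unadjusted p under 0.05. Those of MHC class II were 6 higher and 3 lower (median 0.02, and 0.17 with the covariate), 2 of them higher and 0 lower at that p. The shares higher at that p were 25% for class I and 22.2% for class II. Over all genes 15.2% were higher and 18.4% lower. Nlrc5, the transactivator of MHC class I, differed by 0.47 and the class II chain H2-Eb1 by 0.28, and by 0.21 and 0.38 with the covariate. Nlrc5 had 19 probe sets, and its value is that of the probe set with the highest mean. The others are not described here. S100a9, abundant in neutrophils, ran from 8.98 to 9.74 without and 9.16 to 10.77 with p19Arf and differed by 0.63 (limma adjusted p = 0.0539). The neutrophil list had 12 of 17 members higher (median 0.08, and 0.10 with the covariate). At an unadjusted p under 0.05, 4 were higher (23.5%) and 1 lower (5.88%), against 15.2% and 18.4% of all genes.

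Dio3, named above, ends an imprinted region of mouse chromosome 12 that begins with Dlk1 and holds a large cluster of microRNA genes. From the maternal chromosome the long noncoding RNAs Meg3 and Rian and the microRNAs are made, and from the paternal one Dlk1, Rtl1 and Dio3. The microRNA genes between Dlk1 and Dio3 (chr12:109452485-110281097, GRCm38.p6) were grouped by position after the values were seen, and 39 were measured. The mature sequences of some with the smallest p are shown, with the seed, bases 2 to 8, in capitals, since the seed sets which messages a microRNA pairs with. They are RefSeq's, and all lie on the plus strand of GRCm38.p6: miR-539-5p at chr12:109728136-109728157, miR-494-3p at chr12:109715367-109715388, miR-323-3p at chr12:109712558-109712578, miR-376b-3p at chr12:109723508-109723528, miR-379-5p at chr12:109709065-109709085, miR-380-3p at chr12:109711842-109711863 and miR-369-3p at chr12:109743466-109743486.
miR-539-5p: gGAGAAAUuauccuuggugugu
miR-494-3p: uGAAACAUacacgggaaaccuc
miR-323-3p: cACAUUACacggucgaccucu
miR-376b-3p: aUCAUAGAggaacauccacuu
miR-379-5p: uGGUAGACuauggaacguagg
miR-380-3p: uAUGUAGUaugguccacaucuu
miR-369-3p: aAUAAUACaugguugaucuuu
The 7 seeds differ from one another. Over the 74 mature sequences of the 39 genes, 2 seeds were shared by more than 1 gene: AUGUAAC by miR-379-3p and miR-411-3p, and UGGAUAU by miR-376c-5p and miR-376b-5p.

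All 39 of these microRNA genes were higher by estimate, 26 of them at an unadjusted p under 0.05 (15.2% of all genes), with a median log2 difference of 0.21. They were higher both without and with IFNbeta in 38, with medians of 0.14 and 0.27. Of the 261 other microRNA genes 211 were higher, 65 at an unadjusted p under 0.05, with a median of 0.11. Once the spread was a covariate, 37 of the 39 were higher, 6 at an unadjusted p under 0.05, with a median of 0.10, against 0.01 for the others. These genes have low array levels, and low-level genes as a whole were higher with p19Arf. The group's mean log2 level per array ran from 5.71 to 5.98 in p19Arf against 5.55 to 5.90 in eGFP, and from 5.78 to 6.09 in the combination against 5.52 to 5.80 in IFNbeta. The files do not say whether a probe set reads the hairpin, the host transcript or the mature microRNA.

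Mir323 had the largest difference of the group. It had a log2 level of 4.85 to 6.13 without p19Arf (median 5.20) and 5.30 to 6.73 with it (median 6.03). All tumors with p19Arf lay above the median of those without, and 3 lay above all of them. Mir323 differed by 0.67 (limma adjusted p = 0.0539), and by 0.30 with the spread as a covariate. Mir539 ran from 3.84 to 4.11 without and 4.10 to 4.62 with p19Arf, with 9 of 10 tumors above all without, and differed by 0.28. Mir494 differed by 0.22 and Mir376b by 0.33.

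The long transcripts of the region pointed the same way in the deposited values. Meg3 had a log2 level of 7.72 to 9.44 without p19Arf (median 8.14) and 8.30 to 10.40 with it (median 9.18). Within their groups IFNbeta replicate 3 (9.40) and p19Arf replicate 2 (9.75) stood above the other arrays. Meg3 differed by 0.81 (limma adjusted p = 0.0569), by 0.39 without and 1.22 with IFNbeta, and by 0.35 with the spread as a covariate. Rian differed by 0.30, Dlk1 by 0.19 and Rtl1 by 0.12, and by 0.41, 0.03 and -0.02 with the covariate.

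**Figure D5:**
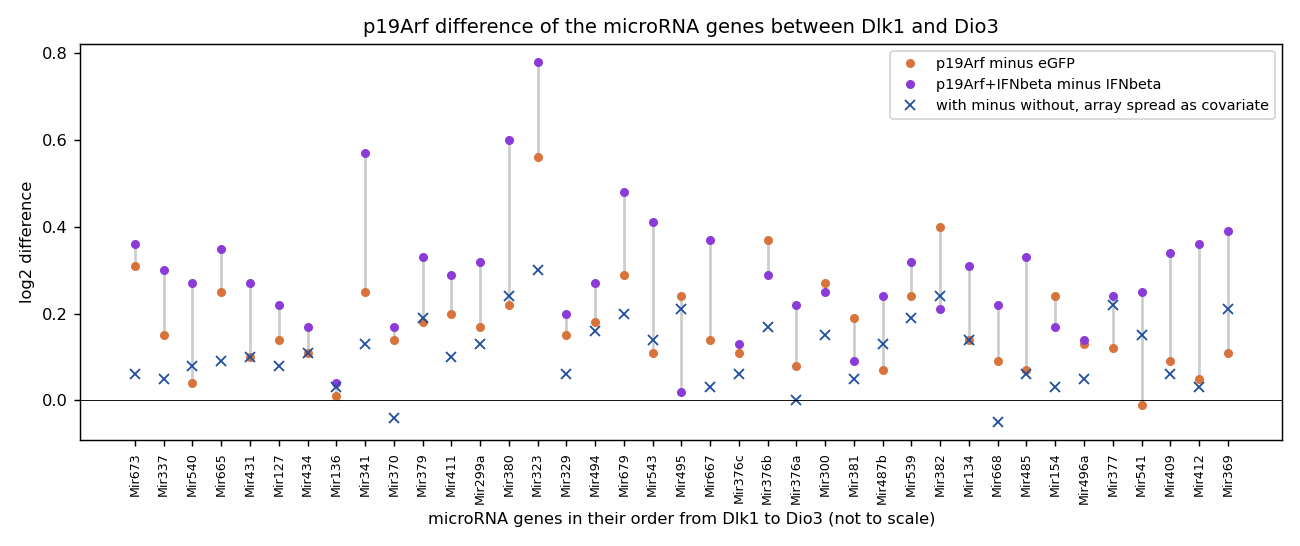
The log2 difference of each of the 39 microRNA genes between Dlk1 and Dio3, in their order along the chromosome and not to scale, is shown for p19Arf minus eGFP, for combination minus IFNbeta, and for all tumors with minus without p19Arf once array spread is a covariate. In 38 of 39 both differences lie above 0, and the highest pair is that of Mir323.

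Further families of genes were higher by estimate in most members. Small nucleolar RNA genes, whose products guide chemical modification of ribosomal RNA, were higher in 47 of 51 members, 29 (56.9%, against 15.2% of all genes) at an unadjusted p under 0.05, with a median of 0.32. Their mean log2 level was 9.6, in the ninth of the 10 groups of genes by level, whose own median difference was -0.14. With array spread as a covariate 40 were higher, 0 of them at that p, with a median of 0.09. Olfactory receptor genes, which are not known to be active in such tumors and had a mean log2 level of 5.37, were higher in 976 of 1027. At an unadjusted p under 0.05, 330 were higher (32.1%, against 15.2% of all genes). Their median was 0.16, and 0.04 with the covariate, where 34 (3.31%, against 2.84% of all genes) were higher at that p. Skeletal muscle genes had 20 of 21 members higher, with 2 higher and 1 lower at an unadjusted p under 0.05. Their median was 0.21 (0.48 without and -0.00 with IFNbeta) and 0.26 with the covariate, where 0 members reached that p. Markers of skin epidermis had 13 of 15 members lower and 0 at an unadjusted p under 0.05, with a median of -0.20 that was 0.04 without IFNbeta replicate 3. With the covariate all 15 were lower, 12 of them (80%, against 2.7% of all genes) at that p, with a median of -0.62. That array, of low spread, had a mean level of 8.72 for this list, against 6.45 to 6.65 in the rest of its group. The covariate fit was not run without it.

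Genes whose tumors did not overlap were few. All 5 p19Arf arrays lay beyond all 5 eGFP arrays in 138 genes (0.692%), and all 5 combination arrays beyond all 5 IFNbeta arrays in 415 (2.08%). Relabelling 5 against 5 arrays separates the values of a gene in this way in a share of 0.00794 of cases. On the same side in both were the higher genes Olfr1013 and Smim9 and the lower genes Maml3 and Zhx2, named after their values were seen. Olfr1013 was the 1 gene (0.00502%) with all 10 tumors with p19Arf (4.71 to 5.46) beyond all 10 without (4.32 to 4.69). Maml3, a coactivator of Notch signalling, ran from 9.27 to 9.55 without and 8.81 to 9.32 with p19Arf and differed by -0.24. Zhx2, a transcriptional repressor, ran from 7.86 to 8.21 without and 7.48 to 7.86 with p19Arf and differed by -0.18. The limma adjusted p was 0.0598 for Olfr1013, 0.0539 for Smim9 and Maml3 and 0.0673 for Zhx2.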

How the data were processed

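Total RNA of 20 tumors, 5 for each vector, was hybridised to Affymetrix arrays of 1 colour, per the labels' protocols. The authors deposited a table of log2 expression values for 35556 probe sets, from 2.33 to 14.7; the base was read from this range. The submitters' processing notes name Affymetrix Expression Console and GCOS with no version. How probes were summarised, background-corrected or filtered is not given in these sources, and no step was added.

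Names came from the platform annotation and the GRCm38.p6 gene table: 21789 had 1 symbol, 1621 several and 12146 none. Where a gene had several, its probe set of highest mean was used, giving 19938 genes with no filter on low values. limma 3.58.1 in R 4.3.3 fitted p19Arf and IFNbeta presence additively (17 residual degrees of freedom, eBayes moderation) to all 20 arrays; the differences without and with IFNbeta and the interaction came from 1 mean per group. Tests were 2-sided, with Benjamini-Hochberg adjustment over all genes and a threshold of 0.05. Single values were compared by exact permutation within IFNbeta status. The fit was tested on simulated data.

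The comparison, its 42 gene lists, of which 779 of 853 written members were measured, and the alternatives were chosen with earlier results of these data known. The named genes were Cdkn2a and Ifnb1, the 12 in each direction with the smallest p, since none passed, leaving out predicted genes, olfactory, vomeronasal, small nucleolar RNA and microRNA genes, and of each list the 2 of smallest p; others are said in the text to have been named after their values were seen, as were Pgf, Vegfa, Pecam1, Bbc3, Fas, Mdm2, Mki67, Ccnb2, Ccl22, Cd4, Cd8b1 and the genes between Dlk1 and Dio3. Alternatives were median centring, quantile normalization, array weights, trended and robust moderation, a filter on level, another probe set rule, the array spread as a covariate, no IFNbeta covariate, a replicate block and leaving out each array. Replicate numbers did not pair the arrays: the correlation of same-numbered arrays' deviations ran from -0.624 to 0.657 over 30 pairs (median -0.0476). The labels give no batch. Neither protein sequence nor the vector inserts were used here.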

Additional observations from a re-analysis of the deposited data

Results flagged for a closer look

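In groups of 5 arrays, a value was marked when its gap to the nearest other array, over the range of the group, exceeded Dixon's critical value of 0.71. Over 304 groups of 76 quantities 26 values were marked, where chance marks about 1 group in 20. Of these, 20 fell on 2 arrays without p19Arf.

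IFNbeta replicate 3 stood apart in 12 quantities. Its array spread was 2.04 against 2.12 to 2.15 on the other 4 arrays, its mean log2 level of skin epidermis markers 8.72 against 6.45 to 6.65, and that of cell cycle genes 9.73 against 10.10 to 10.21. Among interferon genes Ifnb1 was at 6.65 (others 6.03 to 6.20), Ifit3b at 7.45 (6.20 to 6.54) and Oas2 at 11.64 (10.44 to 10.53). The proteoglycan genes Dcn and Lum were low there, at 11.26 (12.05 to 12.32) and 7.95 (9.79 to 10.31), and so were the cyclins Ccna2 at 10.67 (11.38 to 11.59) and Ccnb2 at 10.52 (11.73 to 11.77). Meg3 was at 9.40 (8.04 to 8.39) and Mir323 at 5.98 (5.09 to 5.26).

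On eGFP replicate 1 Tlcd3a was at 9.09 (others 9.41 to 9.48), Fn1 at 12.77 (13.04 to 13.15), Dcn at 11.22 (12.25 to 12.38), Rsad2 at 9.43 (9.94 to 10.13), Ccna2 at 10.88 (11.39 to 11.56) and Ccnb2 at 10.80 (11.58 to 11.86), each the lowest of its group. Mir494, at 5.91 (5.70 to 5.75), and Mir376b, at 4.01 (3.63 to 3.73), were the highest there.

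Among tumors with p19Arf, Meg3 at 9.75 (8.30 to 8.63) and Zmat3 at 9.90 (9.31 to 9.48) were high on p19Arf replicate 2. Capn6 at 6.70 (6.37 to 6.46) and Vegfa at 11.21 (10.45 to 10.65) were high on combination replicate 4, and Klk1b9 at 6.44 (6.74 to 6.84) was low on combination replicate 2. On eGFP replicate 5 the mean level of skin epidermis markers was 7.23, against 6.59 to 6.78.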

How the results depend on the processing

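The count of genes at an adjusted p under 0.05 was the least stable result. For the p19Arf difference over all tumors it was 0, and became 2530 with array weights, 1456 with only genes above the median level, 607 with no IFNbeta covariate and 4009 at an adjusted p under 0.10, and ran from 0 to 3595 when each array was left out. For the difference with IFNbeta it was 0, and became 1730 with array weights and 1 each with median centring, with genes above the median level and at an adjusted p under 0.10, and ran from 0 to 2351 with each array left out, the highest being without IFNbeta replicate 3. The counts without IFNbeta and for the interaction stayed at 0 under every alternative run. Replicate numbers did not pair the arrays, and with the replicate block the count over all tumors was 0 (smallest adjusted p 0.0775).

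Of the named genes run through the alternatives, Cidea (-0.01), Oas2 (-0.18), Vegfa (-0.08), Rtl1 (-0.02) and Mki67 (0.02) turned sign with the array spread as a covariate. Oas2 also did so without p19Arf replicate 2 (-0.04 to 0.19 with each array left out). Genes of the text not run through all of them include Col1a1, Col5a1, Pecam1, Cd4, Cd8b1 and Bst2, so these counts do not cover them. Bst2 also turned to lower with that covariate, where all 30 genes of the interferon list were lower. The cause was not tested. Leaving-out of each array aside, in 1346 of the other settings of single genes the direction and side of the threshold stayed and in 234 the gene newly passed. With each array left out these numbers were 2535 and 424. With no detection call, signal over background is not known.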
